A study of Homo sapiens with 8 samples.

Results

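CpG island shores were followed while human embryonic stem cells lost the maintenance methyltransferase DNMT1. Here a shore is an autosomal tile of 1 kb that lies 1 or 2 tiles from an unmethylated, CpG-dense tile and lists 3 to 19 CpGs. The dense tile, called core, lists 40 or more CpGs in any library and had 5% or less of its reads methylated in the pooled reads of days 0 and 1. The rule chose 9459 shore tiles, 5912 next to a core tile and 3547 at 2 tiles from one, out of 426058 autosomal tiles with a listed CpG. Members were thus chosen by the core's methylation on the first 2 days, by CpG number and by position, and not by their own methylation. Of 14869 tiles that lie 1 or 2 tiles from core and are not core, 2073 were left out with 1 or 2 listed CpGs and 3337 with 20 or more.

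The cells were HUES64, an established line, with the genotype given as a DNMT1 knockout, and all 8 libraries share it. From what is known of the study, the line was kept alive by DNMT1*, an exogenous copy of the enzyme that can be shut off. Withdrawal of DNMT1* was sampled daily from day 0 to day 7 by RRBS (reduced representation bisulfite sequencing, where a restriction enzyme picks the fragments that are read), with 1 library per day and no replicate. The labels name no separate clone or culture, so every p value below describes the order of days within 1 course and not the spread between courses.

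DNMT1 copies CpG methylation onto the new DNA strand after replication, and without it each division dilutes the mark. CpG islands at gene starts usually stay free of methylation, while most other CpGs of the genome are methylated. Shores are the flanks where one state gives way to the other, and their methylation is known to vary between tissues and tumours.

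The 5 deep libraries (days 0, 1, 2, 6 and 7) held 77691782 to 161534152 CpG read calls, and days 3, 4 and 5 held 12359218 to 15156251. A measured CpG had 10 or more reads in each deep library. Measured CpGs numbered 62751 in the shores, 42697 of them 1 tile from core, and 515 shore tiles held none. Median reads per shore CpG were 54 on day 0, 25 on day 1 and 45 on day 7, against 49, 23 and 42 in distant tiles. Distant tiles also list 3 to 19 CpGs but lie 11 or more tiles from any core tile (248892 tiles, 1242964 measured CpGs). The labels give no batch. Days 3 to 5 stand apart in depth, so they entered only as pooled reads. Reads carry no molecular identifiers, and all intervals below are at 95% and cover counting error only.

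Core tiles were 8071 of the 10661 tiles with 40 or more listed CpGs (75.7%), and formed 6760 runs, of which 5608 were a single tile. Gene starts were placed on the hg19 positions of the files by the spacing of CpGs in RefSeq promoter windows of build GRCh38.p14, a step added after the data were seen. It placed 7956 of 17893 windows with enough CpGs, and 42.5% of core tiles held such a start. The letters of 4 of these promoters are shown because shore tiles near them are named later, for the largest step or for the smallest and largest share of methylation kept. Those of CDS2, NRBP1 and POLR2L lie within the core tile of that shore, while most of the TBL3 stretch lies before its core tile. Distances to a start are counted from the nearer edge of the tile. Each line gives the 250 bases before the start from RefSeq, read 5′ to 3′ on the gene's strand, with CpGs in capitals.
CDS2: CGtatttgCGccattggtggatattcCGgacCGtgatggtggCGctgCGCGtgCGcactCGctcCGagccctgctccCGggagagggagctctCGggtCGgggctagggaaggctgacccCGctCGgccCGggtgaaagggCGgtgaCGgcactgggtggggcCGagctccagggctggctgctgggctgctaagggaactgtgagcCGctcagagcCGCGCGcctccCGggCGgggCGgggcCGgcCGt
NRBP1: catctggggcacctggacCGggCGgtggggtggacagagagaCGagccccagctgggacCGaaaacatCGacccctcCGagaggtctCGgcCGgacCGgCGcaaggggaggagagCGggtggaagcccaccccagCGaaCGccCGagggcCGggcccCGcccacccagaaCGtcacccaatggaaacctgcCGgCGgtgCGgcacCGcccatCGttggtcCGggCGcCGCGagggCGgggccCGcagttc
POLR2L: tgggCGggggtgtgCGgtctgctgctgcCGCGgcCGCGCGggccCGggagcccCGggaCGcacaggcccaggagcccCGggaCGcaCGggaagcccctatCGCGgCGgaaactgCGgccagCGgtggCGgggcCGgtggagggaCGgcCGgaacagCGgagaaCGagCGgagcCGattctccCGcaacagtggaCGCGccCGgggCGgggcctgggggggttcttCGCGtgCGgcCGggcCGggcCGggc
TBL3: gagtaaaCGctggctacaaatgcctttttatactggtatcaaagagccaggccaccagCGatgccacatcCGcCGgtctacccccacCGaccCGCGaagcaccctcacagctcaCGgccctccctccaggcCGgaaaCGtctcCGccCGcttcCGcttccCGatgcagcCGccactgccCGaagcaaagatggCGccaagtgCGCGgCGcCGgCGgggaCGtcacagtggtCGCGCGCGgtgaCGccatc
These windows held 28, 28, 37 and 28 CpGs. On days 0 and 1 pooled, 5 of 2771 reads were methylated at the measured CpGs of CDS2, 1 of 1616 at NRBP1, 1 of 2189 at POLR2L and 2 of 2713 at TBL3. Sequences of the shore tiles are not used here.

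Starting methylation depended on which of the 2 distances a shore tile had. Over tiles with 3 or more measured CpGs, the pooled level of days 0 and 1 had a median of 4.01% in the 5117 tiles next to core, with quartiles of 0.259% and 54.2%. The 3011 tiles at 2 tiles had a median of 73.7%, with quartiles of 55.1% and 81.1%, and the 206657 distant tiles one of 78.4%. Next to core, 62.0% of tiles stood at 20% or less, 31.5% between 20% and 80%, and 6.43% at 80% or more. At 2 tiles these shares were 16.3%, 55.0% and 28.7%. The first tile was thus most often part of the unmethylated stretch, and the second most often lay outside it.

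**Figure D1:**
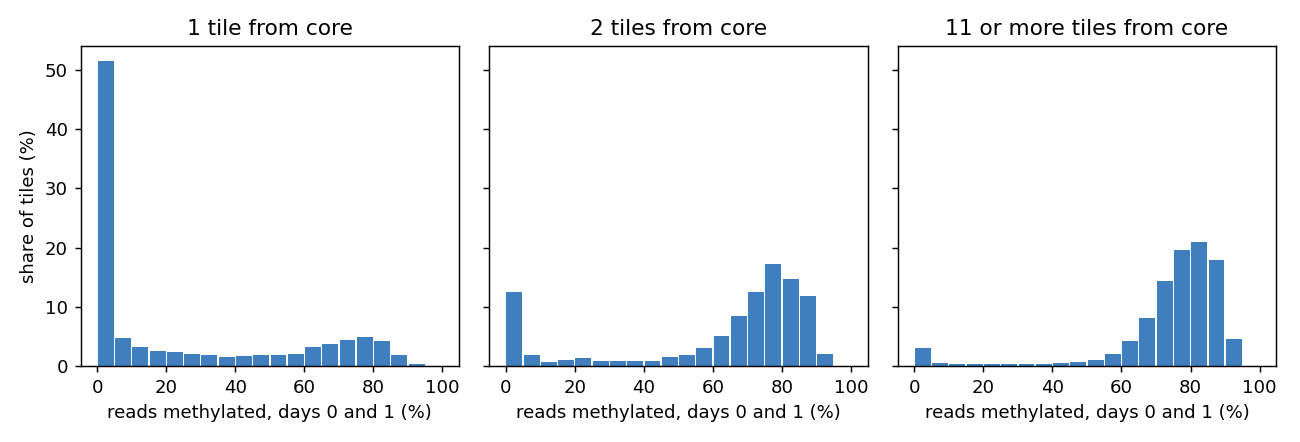
Distribution of the starting methylation level of shore tiles next to core, shore tiles at 2 tiles, and distant tiles. The x axis gives the percent of reads methylated on days 0 and 1 pooled, the y axis the percent of tiles of that group. The bin from 0 to 5% holds 51.4% of the tiles next to core and 12.5% of those at 2 tiles.

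Within the shore the level climbed with distance from the edge of the core tile, apart from small drops just past 1000 bp and in the last bin. CpGs past 1000 bp come from the tiles at 2 tiles. On day 0 the mean was 8.03% over the 24683 CpGs in the first 250 bp and 28.9% in the next 250 bp. It was 48.3% from 501 to 750 bp, 54.2% to 1000 bp, 53.0% to 1250 bp, 60.5% to 1500 bp, 64.8% to 1750 bp and 64.2% to 2000 bp. The share of CpGs at 80% or more rose from 2.47% in the first bin to 45.1% in the last, and that at 20% or less fell from 88.1% to 16.9%. CpGs of intermediate level made up 9.45% of the first bin and between 27.6% and 40.8% of the others.

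The profile sank on each measured day while the climb with distance stayed in place. On day 7 the same bins ran from 1.52% in the first to 13.1% in the last. The distance at which the mean crossed 50% of the farthest bin's level was 416, 419, 430, 461 and 451 bp in the libraries of days 0, 1, 2, 6 and 7. Measured from the nearest measured core CpG instead of the tile edge, it was 535 bp on day 0 and 563 bp on day 7. With 1 library per day these crossings carry no test.

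**Figure D2:**
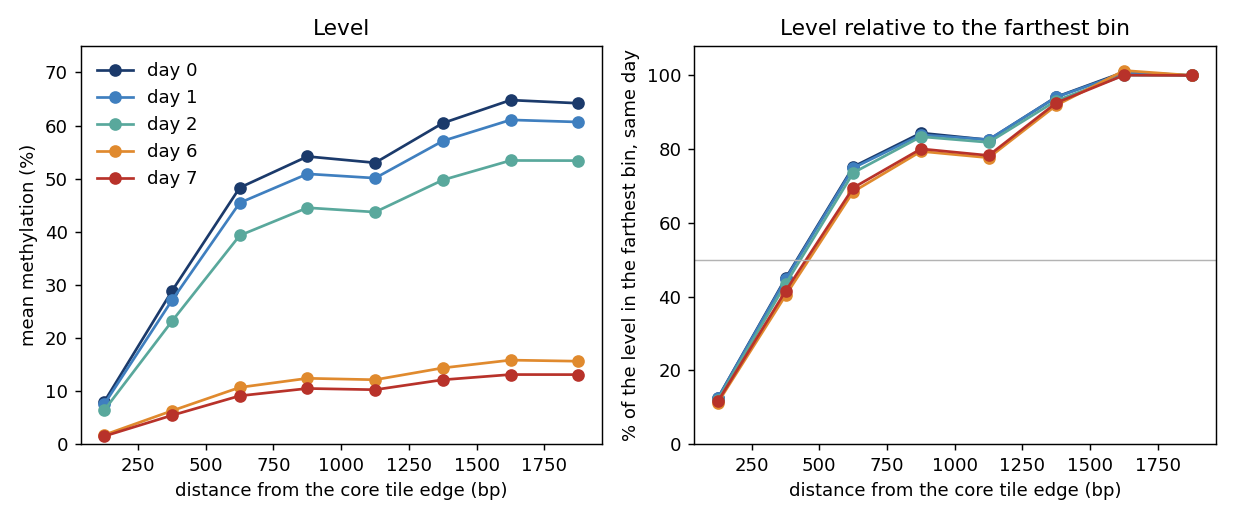
Mean methylation level (y axis, percent) of measured shore CpGs in bins of 250 bp from the edge of the nearest core tile (x axis, bp), 1 line per deep library. From the first bin to the last, levels climb from 8.03% to 64.2% on day 0 and from 1.52% to 13.1% on day 7. Small drops lie just past 1000 bp, where the tiles at 2 tiles begin, and in the last bin.

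Shores at both distances lost methylation over the course. Over days 0, 1, 2, 6 and 7 the mean level next to core was 21.9%, 20.6%, 17.7%, 4.86% and 4.16%. At 2 tiles it was 59.9%, 56.6%, 49.5%, 14.3% and 11.98%, and in distant tiles 73.2%, 69.3%, 61.2%, 18.4% and 15.6%. The level fell from each deep library to the next in all 3 groups. The least-squares slopes were -2.76 ± 0.176 points per day (SE) next to core and -7.47 ± 0.485 at 2 tiles. Each gave p = 0.00833 in an exact two-sided permutation over the 120 orders of the 5 days, the smallest value that these orders allow, and 0.0128 after Benjamini-Hochberg adjustment over 20 trends. Core tiles had 0.544% methylated reads at the start and 0.172% at the end.

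Because the groups start at different levels, loss was compared within classes of CpGs formed from the reads of days 0 and 1 together. Highly methylated CpGs stood at 80% or more, intermediate ones between 20% and 80%, and low ones at 20% or less. The shore next to core held 4716 highly methylated, 8376 intermediate and 29605 low CpGs, and the shore at 2 tiles 8062, 7737 and 4255. The same days set the class and start the trend, in shores and distant tiles alike. The groups differ in the share of CpGs in each class, so the effect of this choice need not be equal in them. Apart from setting the class by day 1 alone, reported below, this was not tested.

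Highly methylated shore CpGs started within 1 point of their distant counterparts, slightly below them, and lost a larger share. Next to core their means for days 0, 1, 2, 6 and 7 were 88.1%, 83.6%, 71.9%, 19.9% and 16.7%. The shore at 2 tiles had 88.4%, 84.0%, 72.9%, 21.2% and 17.6%. Distant CpGs of this class went from 88.8% to 18.8%. On day 7 the share kept, that is the mean level as a percent of day 0, was 18.9% ± 0.191 next to core and 19.9% ± 0.146 at 2 tiles (95% counting half-width), against 21.2% ± 0.0164 in distant tiles. The difference from distant tiles was -2.26 points next to core (95% interval -2.45 to -2.07) and -1.30 points at 2 tiles (-1.45 to -1.15). On day 2 it was already -1.63 and -0.75 points.

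Rates put the same contrast on all 5 days. The natural log of the mean of highly methylated CpGs changed by -0.261 ± 0.0226 per day (SE) next to core. It changed by -0.252 ± 0.0218 at 2 tiles and by -0.243 ± 0.0212 in distant tiles. As averages over the course these are halving times of 2.66, 2.75 and 2.86 days. The pace of loss was not constant. Next to core, days 1, 2, 6 and 7 stood at 94.8%, 86.0%, 27.7% and 83.8% of the deep library before, with day 6 set against day 2. Next to core minus distant, the rate differed by -0.0183 ± 0.00171 per day (exact permutation p = 0.00833, adjusted 0.0128). At 2 tiles the difference from distant was -0.00963 ± 0.000743 (exact permutation p = 0.00833, adjusted 0.0128). The 2 shore distances differed by -0.00869 ± 0.00134 (exact permutation p = 0.0333, adjusted 0.0392). The SE of a rate comes from departures of the log means from a straight line, which include the uneven pace of loss. Both groups come from the same libraries and share most of these departures. They largely cancel in a difference, so its SE is smaller.

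Intermediate shore CpGs also ended lower than distant ones. Next to core their means for days 0, 1, 2, 6 and 7 were 56.8%, 53.1%, 45.8%, 11.8% and 10.2%, so 18.04% of day 0 was kept. The mean at 2 tiles went from 61.7% to 12.2% and 19.8% was kept, and in distant tiles from 64.1% to 13.6% with 21.3% kept. The shortfall against distant tiles was -3.25 points next to core (95% interval -3.45 to -3.05) and -1.45 points at 2 tiles (-1.65 to -1.24). The difference in log rate from distant tiles was -0.0276 ± 0.00321 per day next to core (exact permutation p = 0.025, adjusted 0.0313) and -0.0113 ± 0.0010 at 2 tiles (exact permutation p = 0.0167, adjusted 0.0238). Between the 2 shore distances it was -0.0163 ± 0.00223 (exact permutation p = 0.025, adjusted 0.0313).

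These 6 differences kept their sign without any 1 of the 5 days. Without day 0 or without day 2 the days left are symmetric, the smallest p that their 24 orders allow is 0.0833, and no call could pass. In the other cases of 4 days the smallest p is 0.0417. There all 6 missed the threshold without day 1 (adjusted p 0.0694 to 0.147) and passed without day 6 or day 7 (0.0490). With the class set by day 1 alone, the call ended for the 2 shore distances in both classes and for intermediate CpGs next to core against distant tiles (adjusted p 0.0556 to 0.0588).

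Low CpGs, the bulk of the shore next to core, gave no difference in rate that passed. Their mean next to core for days 0, 2 and 7 was 1.45%, 1.14% and 0.444%, at 2 tiles 2.68%, 2.11% and 0.885%, and in distant tiles 3.16%, 2.69% and 0.961%. On day 7 they kept 30.5% ± 1.80, 33.1% ± 2.84 and 30.4% ± 0.543 of day 0. The rates differed by -0.00153 ± 0.00736 per day next to core (exact permutation p = 0.817, adjusted 0.817) and by 0.0163 ± 0.00754 at 2 tiles (exact permutation p = 0.158, adjusted 0.167) from distant tiles. Between the 2 shore distances they differed by -0.0179 ± 0.00480 (exact permutation p = 0.0667, adjusted 0.0741).

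Beyond the shore the share kept on day 7 by highly methylated CpGs went on climbing before it fell again. It was 18.9% at 1 tile, 19.9% at 2, 21.3% at 3, 21.7% at 4 and 21.8% at 5. From 6 to 10 and from 11 to 20 tiles it was 22.1%, from 21 to 50 tiles 21.7%, and at 51 tiles or more 20.9%. For intermediate CpGs the values were 18.04%, 19.8%, 20.3%, 20.1% and 20.3% over the first 5 tiles, then 20.8%, 20.8%, 20.98% and 21.4%. Both classes had their lowest share next to core. The size of the gap depends on the comparison tiles: against tiles 6 to 20 away, chosen after seeing these values, the difference for highly methylated CpGs next to core was -3.14 points, and against tiles 51 or more away -1.98.

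**Figure D3:**
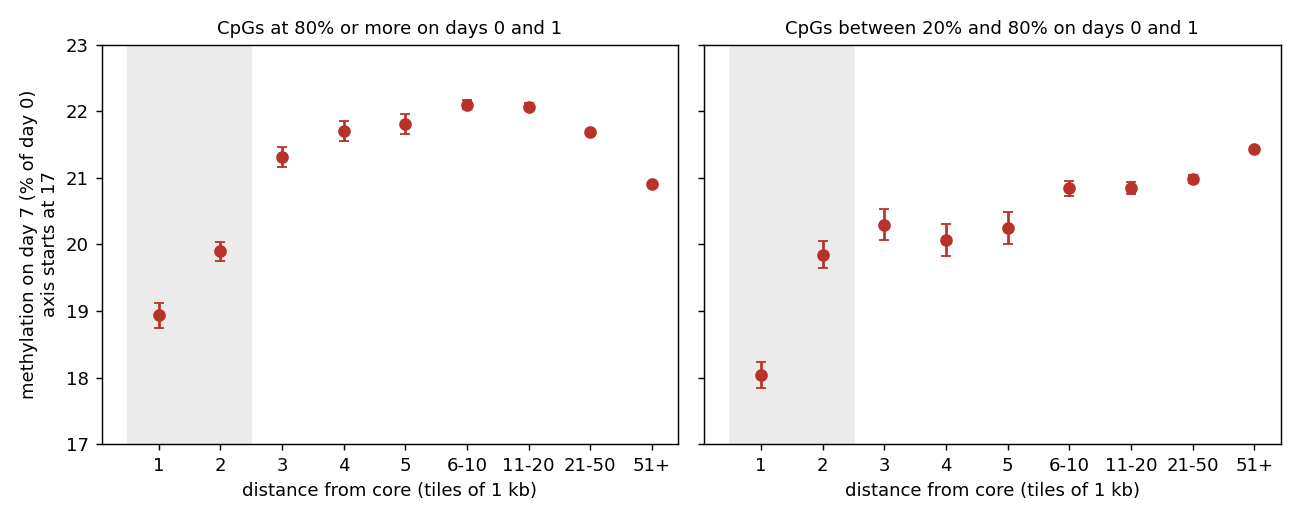
Methylation on day 7 as a percent of day 0 (y axis, which does not start at 0) by distance from the nearest core tile in 1-kb tiles (x axis), for highly methylated and intermediate CpGs, with 95% counting intervals. The shaded distances are the shores, where both classes kept least: 18.9% and 18.04% next to core, 19.9% and 19.8% at 2 tiles.

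The shallow libraries could be used once reads were pooled over CpGs. Highly methylated CpGs next to core stood at 50.6% on day 3 (27714 reads, Wilson interval 50.05 to 51.2%), at 35.1% a day later (23556 reads, 34.5 to 35.7%) and at 28.2% after that (22219 reads, 27.6 to 28.8%). The ratio of this level to that of distant tiles was 0.991, 0.988, 0.970, 0.956, 0.932, 0.898, 0.880 and 0.881 from the first day to the last. For intermediate CpGs next to core it went from 0.878 to 0.731. The ratio at 2 tiles went from 0.995 to 0.937 and from 0.971 to 0.893. In these pooled reads each ratio was lowest on day 5 or 6. For highly methylated CpGs at 2 tiles it was 0.935 on day 5, 0.944 on day 6 and 0.937 on day 7, so it fell again after day 6. Over all 8 libraries the differences in rate next to core were -0.0197 for highly methylated and -0.0313 for intermediate CpGs (exact permutation of 8 days, adjusted p = 0.000165 and 0.000305).

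**Figure D4:**
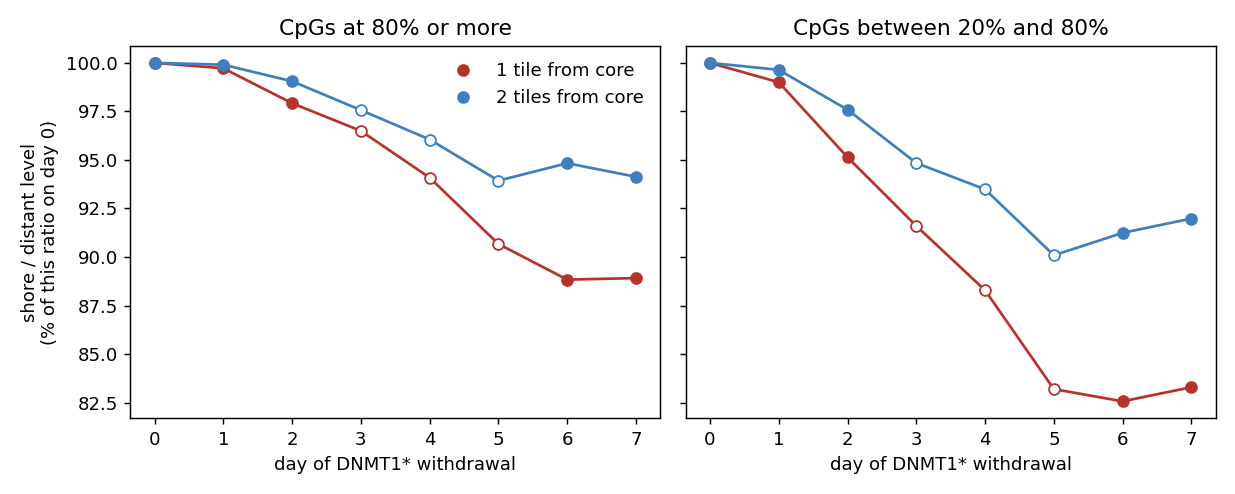
Methylation of shore CpGs relative to distant CpGs of the same class, as a percent of that ratio on day 0 (y axis, which does not start at 0), by day of withdrawal (x axis). Open circles are the shallow libraries of days 3 to 5. Next to core the ratio reached 88.9% of its day 0 value on day 7 for highly methylated CpGs and 83.3% for intermediate ones.

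The gap was also present in narrower classes of starting level from 20 to 95%. There, CpGs next to core that started at 20 to 40% kept 17.5% on day 7, against 21.8% at 2 tiles and 23.3% in distant tiles. From 40 to 60% the shares were 18.4%, 21.01% and 22.7%, and from 60 to 80% they were 17.96%, 19.2% and 20.8%. From 80 to 85% they were 17.99%, 18.4% and 19.8%, from 85 to 90% 18.8%, 19.6% and 20.8%, and from 90 to 95% 20.3%, 21.7% and 22.8%. The order of the 3 groups was the same in each of these classes. From 95 to 100% the shore next to core held too few CpGs for a value. There the 262 CpGs at 2 tiles kept 25.6% ± 0.971, within counting error of the 25.8% ± 0.0956 in distant tiles.

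**Figure D5:**
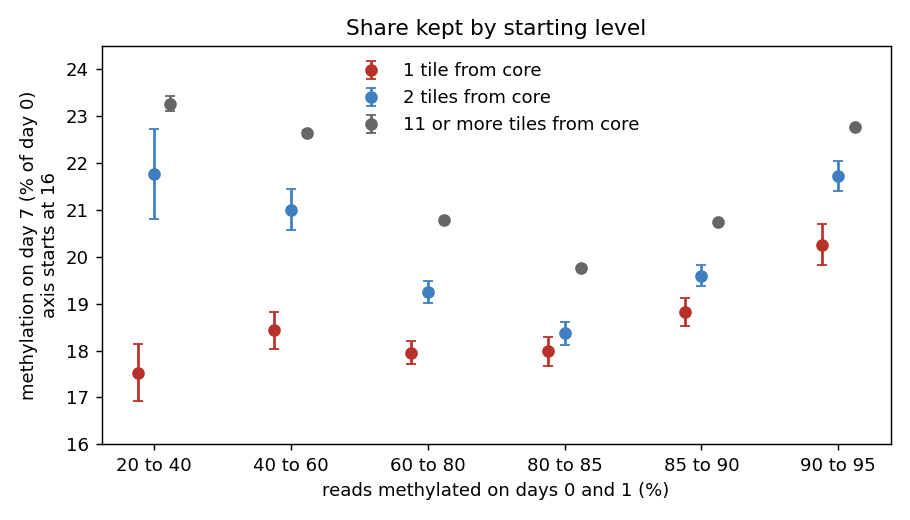
Methylation on day 7 as a percent of day 0 (y axis, which does not start at 0) by starting level on days 0 and 1 (x axis), for shores next to core, shores at 2 tiles and distant tiles, with 95% counting intervals. In every class from 20 to 95% the shore next to core is lowest and the distant tiles are highest, for example 17.5%, 21.8% and 23.3% from 20 to 40%.

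CpG number differs between the groups too, with a median of 9 listed CpGs per tile next to core, 6 at 2 tiles and 5 in distant tiles. Highly methylated CpGs next to core kept 19.7% in tiles with 3 to 5 listed CpGs, 19.2% with 6 to 9, 18.8% with 10 to 14 and 18.1% with 15 to 19. In distant tiles the same 4 groups kept 21.1%, 21.2%, 21.3% and 21.2%. Distant CpGs were then weighted to the starting level and CpG number of shore CpGs pooled over the 2 distances. The same weighted set served each distance, so neither distance was matched on its own. Highly methylated CpGs differed in rate from this set by -0.0171 next to core and -0.00843 at 2 tiles. For intermediate CpGs the differences were -0.0284 and -0.0121. Each of these differences had an adjusted p of 0.0139 to 0.0313 by exact permutation. In tiles with 3 to 9 listed CpGs the 2 shore distances differed by -0.00455 for highly methylated CpGs, which did not pass (exact permutation, adjusted p = 0.0686).

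Some shore tiles held both states. Among tiles with 5 or more measured CpGs, 538 of 3922 next to core (13.7%) had at least 1 low and 1 highly methylated CpG. At 2 tiles this share was 9.16% and in distant tiles 7.89%. CpGs per tile and the share of low CpGs also differ between the groups and were not held equal here. Highly methylated CpGs that shared a tile with a low CpG kept 18.5% ± 0.358 next to core, and those that did not kept 19.1% ± 0.226. In distant tiles these shares were 20.5% and 21.2%. The shore next to core was lower than distant tiles in both kinds of tile.

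Next to core, shores of longer runs kept less. Beside runs of 1 core tile, intermediate CpGs kept 18.4% ± 0.221, and beside runs of 2 core tiles 16.6% ± 0.467. Highly methylated CpGs there kept 19.1% ± 0.209 and 18.3% ± 0.509. At 2 tiles the shares were within counting error for highly methylated CpGs (19.9% ± 0.159 and 19.7% ± 0.389), and 19.96% ± 0.226 and 19.3% ± 0.522 for intermediate ones. Only 111 shore tiles had core within 2 tiles on both sides. The 79 of them that were next to core and held a measured CpG averaged 9.22% on day 0, against 22.1% next to core on 1 side.

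The 2 shores of one core were nearly unrelated in level. Over 1000 pairs of left and right tiles next to the same core run, Pearson's r of the day 0 level was 0.034, while over 1300 pairs of first and second tile on the same side it was 0.382. The tiles of both kinds of pair share libraries and a core, and these values are descriptions across tiles. For 2702 core runs with placed gene starts of 1 strand only, shores next to core averaged 25.2% on day 0 upstream of the start and 19.6% downstream. Intermediate CpGs there kept 19.3% upstream and 17.1% downstream. Highly methylated CpGs kept 19.3% and 19.7% next to core and 19.04% and 20.5% at 2 tiles, so the side that kept more was not the same in both classes.

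The lower share was found across the chromosomes. Highly methylated CpGs kept less next to core than in distant tiles on 22 of 22 autosomes, and so did those at 2 tiles. The per-chromosome shares next to core ran from 16.7% to 20.2% and those of distant tiles from 20.3% to 21.7%, so these ranges did not overlap. Intermediate CpGs kept less on 22 of 22 autosomes next to core and on 21 of 22 at 2 tiles. The tile next to core was below the tile at 2 tiles on 18 of 22 for highly methylated and 19 of 22 for intermediate CpGs. Autosomes are parts of the same libraries and are not replicates.

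Single shore tiles were tested for a trend over the 5 deep libraries with a quasi-binomial model fitted to all 263521 autosomal tiles with 3 or more measured CpGs. Of all tiles 92.1% fell and 0.129% rose at an adjusted p below 0.05. Next to core 2907 of 5117 tiles fell, 29 rose and 2181 did not pass, and at 2 tiles 2689 of 3011 fell, 6 rose and 316 did not pass. By starting level the shares of highly methylated and intermediate tiles lay near the background, while those of low tiles next to core lay below it. All 329 highly methylated and 1613 intermediate tiles next to core fell, as did all 865 highly methylated and 1654 of 1655 intermediate tiles at 2 tiles (background 100% in both classes). Low tiles fell in 965 of 3175 cases next to core (30.4%) and 170 of 491 at 2 tiles (34.6%), against 35.1% of low tiles in the background. That background includes the 8071 core tiles, all of them low, of which 27.5% fell. Among 8787 low distant tiles 37.5% fell. Whether these shares differ was not tested.

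Rises were few and small. All 29 and 6 rising shore tiles were low ones, 0.913% and 1.22% of the low shore tiles beside a background of 1.06%. That background includes the core tiles, of which 1.28% rose. Among low distant tiles 0.831% rose. Whether these shares differ, and how many of the rises are false calls, was not tested. The largest fitted rise was at hg19 chr14:103588001-103589000, next to core and 246 bp downstream of the placed start of the non-coding gene LINC00677. Its methylated reads over days 0, 1, 2, 6 and 7 were 3 of 314, 0 of 147 (which allows up to 2.04%), 3 of 246, 11 of 190 and 11 of 208. The last is 5.29% (2.98 to 9.22% by Wilson's method, adjusted p = 0.000592 by the quasi-binomial model). The next was chr3:53879001-53880000, 446 bp downstream of the placed start of CHDH, which encodes choline dehydrogenase. It went from 1 of 377 reads on day 0 to 9 of 416 on day 7. The count of rises next to core was 18, 14 and 17 when day 2, day 6 or day 7 was left out, and 3 when the dispersion was not moderated. For the shore at 2 tiles it was 2 with day 6 left out and 0 with no moderation.

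Among 680 highly methylated shore tiles with 5 or more measured CpGs, the pooled level of days 6 and 7 as a percent of days 0 and 1 ran from 8.58% to 44.3%, with a median of 22.1% and quartiles of 19.03% and 25.3%. Tile medians were 20.999% next to core (180 tiles), 22.4% at 2 tiles (500 tiles) and 23.6% in 45032 distant tiles. The distributions overlapped widely: the central 90% ran from 13.2% to 30.5% next to core and from 15.8% to 33.7% in distant tiles.

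The extremes of this range were picked for their values and are given as a description. The smallest share, 8.58%, was at chr12:51156001-51157000, at 2 tiles from core and 1253 bp upstream of the placed start of ATF1, a transcription factor of the CREB family. Its level over days 0, 1, 2, 6 and 7 was 78.5%, 88.0%, 65.6%, 5.62% and 8.30%, from 158 to 302 reads. The tile at chr11:841001-842000, next to core and 529 bp downstream of the start of POLR2L, a small RNA polymerase subunit, kept 9.31%. Its levels were 84.6%, 76.9%, 71.9%, 4.86% and 10.4%. The tile at chr2:27650001-27651000, 498 bp upstream of the start of NRBP1, which encodes a pseudokinase, kept 10.5%. Its levels were 81.6%, 78.9%, 52.4%, 8.21% and 8.81%. These 3 tiles lost nearly all of their methylation beside promoters that had almost none, as printed above for POLR2L and NRBP1. Tiles without a placed gene start at chr13:20439001-20440000 and chr16:29913001-29914000 kept 9.76% and 10.5%.

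At the other end all 5 tiles lay at 2 tiles from core, as did 500 of the 680 tiles they were picked from. The tile at chr12:132416001-132417000, with no placed gene start, kept 44.3%, with 323 of 346 reads methylated at the start and 111 of 295 at the end (37.6%, 32.3 to 43.3% by Wilson's method). The tile at chr19:2326001-2327000, 1585 bp downstream of the start of LSM7, a subunit of Sm-like RNA-binding rings, kept 40.1%, with levels of 88.8%, 80.3%, 86.3%, 40.6% and 25.8% over the 5 deep libraries. The tile at chr16:2024001-2025000, 1947 bp downstream of the start of TBL3, a factor in ribosomal RNA processing, kept 37.0%. There the levels were 91.5%, 90.5%, 80.9%, 38.4% and 28.9%. Each of these tiles stayed above the median tile and still fell. The other two, at chr11:64877001-64878000 and chr16:2508001-2509000, kept 38.5% and 36.8%.

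The steepest borders placed a nearly fully methylated tile beside a core. At chr20:5106001-5107000, 654 bp upstream of the start of CDS2, a CDP-diacylglycerol synthase of phospholipid synthesis, the pooled level of days 0 and 1 was 91.7% against 0.115% in the core tile next to it. In the 5 deep libraries it was 88.7%, 96.6%, 69.8%, 25.9% and 29.8%. At chr16:3662001-3663000, 240 bp downstream of a start of DNASE1, a secreted nuclease, 91.6% stood beside 0.188%, and the level went from 92.7% on day 0 to 13.6% on day 7. The widest step, 93.1% beside 0.141%, was at chr1:1589001-1590000 near a start placed as CDK11B. That gene has a near-identical copy close by, so the placement and the reads there are uncertain. On days 6 and 7 the tile beside CDS2 kept 30.5%, that beside DNASE1 13.2% and that near CDK11B 23.6%, on both sides of the median tile.

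Of 15 lineage regulators on a list, PAX6, HAND1, LHX2 and WT1 had a placed start, and the first 3 lay in core tiles. They had 4 shore tiles with 3 or more measured CpGs, and the mean over the tiles of each gene was below 1% on the days given here. The mean was 0.708% on day 0 and 0.417% on day 7 for the 2 tiles beside PAX6, which specifies eye and neural fates. Beside HAND1, a factor of heart and extraembryonic lineages, 0 of 621 reads on day 0 and 0 of 615 on day 7 were methylated, which allows up to 0.483% and 0.488%. The mean was 0.2503% and 0.303% beside LHX2, a factor of forebrain development. With 553 and 345 reads there, even 0 methylated reads would allow up to 0.542% and 0.870%, more than either mean. For PAX6 on day 7 this limit is 0.395%, close to its mean. The other 11 genes were not placed.

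Day 0 levels just inside and just outside the limits of the rule are given without a test. Tiles near core with 1 or 2 listed CpGs averaged 48.7% and those with 3 or 4 averaged 53.0%, and tiles with 18 or 19 averaged 17.5% against 15.6% with 20 or 21. Neighbours of core tiles at 4 to 5% averaged 38.9%, and those of dense tiles just above the limit, at over 5 to 6%, 44.6%.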

How the data were processed

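DNA of 8 libraries, 1 per day of DNMT1* withdrawal, was measured by RRBS, per the labels' protocols. The submitters' processing notes name build hg19. For the aligner, caller and read filters: not given in the sources used here. Each deposited file gives, per CpG, methylated and total read counts, which were used, and a score by the authors, which was not. The members and lists were chosen with earlier results of these data known.

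CpGs were joined by position and needed 10 reads in each of days 0, 1, 2, 6 and 7. Group means weight CpGs equally. Pooled reads served days 3, 4 and 5. Rates are least-squares slopes of the natural log of the mean on day, with exact two-sided permutation of 120 orders of 5 days and Benjamini-Hochberg adjustment over 20 trends at 0.05. For tiles with 3 or more measured CpGs, a quasi-binomial model took the methylated and unmethylated reads against day, with the dispersion moderated by limma's squeezeVar and kept at 1 or more. On 20000 simulated tiles this found 86%, 82%, 20% and 66% of changes in log odds of -0.4, -0.2, -0.1 and 0.2 a day. Of its calls, 4 (3.05%) were false. Each change was planted in only 50 tiles, while 92.1% of the real tiles fell. An adjusted p below 0.05 is thus a looser limit in the data, and the 3.05% does not carry over to them. Of the unchanged simulated tiles, 5.28% had an unadjusted p below 0.05 by the quasi-binomial model. For the rates, slopes of -0.3, -0.27 and -0.25 planted in highly methylated CpGs at 1 tile, 2 tiles and distant tiles came back as -0.301, -0.270 and -0.250.

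Named tiles have 5 or more measured CpGs and are the 5 smallest and 5 largest shares kept, the 5 largest rises and the 3 largest steps from core. The plan named genes only with an hg19 annotation. None was used here, so gene starts were placed by requiring 12 or more CpGs of a RefSeq window (GRCh38.p14) to coincide with listed positions, which 7977 windows met. Of these, 99.7% shared their shift with a neighbour to within 5000 bases, and only those were used. No coordinates were converted. Alternatives varied the read minimum, weighting, core and tile limits, class limits, comparison tiles, grid, background subtraction and each day left out. Python 3.11.15, numpy 2.4.6, pandas 2.3.3, scipy 1.17.1, R 4.3.3 and limma 3.58.1 were used.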

Additional observations from a re-analysis of the deposited data

Results flagged for a closer look

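The loss in shores differed from that in distant tiles, or between the 2 shore distances, by a test of the difference itself in 6 cases. In highly methylated CpGs the log rates differed by -0.0183 next to core against distant tiles, -0.00963 at 2 tiles against distant tiles and -0.00869 between the 2 distances. In intermediate CpGs the values were -0.0276, -0.0113 and -0.0163. Each p came from 1 course.

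The X chromosome was outside the autosomal comparisons. Its 89 highly methylated CpGs next to core kept 18.2% ± 1.42 of day 0 on day 7, against 20.6% ± 0.0947 in 23956 distant CpGs and 22.2% ± 1.19 in 148 CpGs at 2 tiles (95% counting half-widths), so the 2 shore distances stood on opposite sides of the distant tiles there.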

How the results depend on the processing

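No paired analysis was possible because each day has 1 library and no replicate number. The 6 differences in rate of highly methylated and intermediate CpGs kept their direction in 150 of 150 alternatives. In 12 of these (without day 0 or day 2) the smallest possible p is 0.0833 and no call could pass. Of the other 138, 127 passed and 11 did not, 6 of them without day 1. Settings that changed only the distant tiles could not alter the difference between the 2 shore distances, so its agreement there was fixed in advance. Between the 2 shore distances, highly methylated CpGs no longer passed with cores of 60 or more CpGs (-0.00896, adjusted p = 0.0556 by exact permutation), with 3 to 9 listed CpGs (-0.00455) or with the class set by day 1 alone (-0.0103). Under that last setting intermediate CpGs gave -0.0250 next to core against distant tiles and -0.0139 between the distances. The cause was not tested. With 1 day left out, where 24 orders remain, the values next to core against distant tiles, at 2 tiles against distant tiles and between the distances ranged from -0.0197 to -0.0170, -0.0105 to -0.00926 and -0.0105 to -0.00740 for highly methylated CpGs, and from -0.0318 to -0.0247, -0.0124 to -0.0105 and -0.0193 to -0.0142 for intermediate ones. The rates themselves ranged from -0.285 to -0.252, -0.275 to -0.245 and -0.265 to -0.235 (highly methylated, next to core, 2 tiles, distant), from -0.294 to -0.259, -0.277 to -0.244 and -0.265 to -0.234 (intermediate) and from -0.193 to -0.176, -0.172 to -0.162 and -0.195 to -0.177 (low). The slopes of the mean ranged from -2.95 to -2.61 and from -7.92 to -7.08 points per day.

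For low CpGs next to core against distant tiles the sign turned with 20 reads (0.000838), a core limit of 2% (0.00139), cores of 30 CpGs (0.000562), 10 to 19 listed CpGs (0.00377), distant tiles from 51 tiles (0.00272) and the grid moved by 500 bp (0.00547), and ranged from -0.00933 to 0.00155 with a day left out. At 2 tiles it turned with weighted distant CpGs (-0.00676). Between the distances it turned with the moved grid (0.00418) and passed with cores of 60 CpGs (-0.0152) or 10 to 19 listed CpGs (-0.0281); with a day left out the last 2 comparisons ranged from 0.0133 to 0.0230 and from -0.0226 to -0.0140.

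The difference in share kept on day 7 moved beyond its counting error as follows. For highly methylated CpGs next to core it was -2.49 with cores of 60 CpGs, -1.76 and -2.74 with 3 to 9 and 10 to 19 listed CpGs, -1.98 against tiles from 51, -2.68 with classes at 90% and 10%, and -3.14 against tiles 6 to 20, a setting chosen after seeing the data. At 2 tiles it was -1.02 and -1.57 with cores of 30 and 60 CpGs, -1.02 against tiles from 51, -0.944 with classes at 90% and 10%, -1.14 with weighted distant CpGs, -1.14 with the moved grid and -2.18 against tiles 6 to 20. For intermediate CpGs next to core it was -3.81 with 20 reads, -3.04 with a core limit of 2%, -2.85 and -3.81 with cores of 30 and 60 CpGs, -2.53 with classes at 90% and 10%, -2.61 with the class set by day 1, -3.49 with the moved grid and -2.80 against tiles 6 to 20. At 2 tiles it was -1.14 and -2.46 with cores of 30 and 60 CpGs, -1.69 with the moved grid and -0.998 against tiles 6 to 20.

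The count of rising tiles next to core was 3 without moderation and 10 by limma on arcsine square-root levels, and ranged from 14 to 33 with a day left out. At 2 tiles it was 0, 2 and 2 to 9. The crossing distance on days 0, 1, 2, 6 and 7 was 535, 535, 544, 584 and 563 bp from the nearest measured core CpG and 428, 444, 446, 474 and 469 bp by pooled reads. Depth on days 3 to 5, a median of 4 or 5 reads per shore CpG, does not allow levels of single CpGs there.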
